A study of Mus musculus with 6 samples.

Results

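The keratin gene family was followed in epithelial cells from the small intestine of mouse embryos labelled as control or as lacking Gata4 and Gata6. Keratin genes were taken by name, as every gene whose symbol is Krt followed only by digits and which is measured by a probe set annotated to 1 gene. This gave 48 genes of the 19938 tested, each with 1 probe set. They comprised 6 simple epithelial keratins (Krt7, Krt8, Krt18, Krt19, Krt20 and Krt23), 19 keratins of stratified epithelia and 21 keratins of hair and its root sheath. Krt88 and Krt222 were put in none of these classes. The samples were 3 control arrays and 3 arrays of Gata4Gata6 double conditional knockout (cKO) embryos, all at E18.5 (a stage shortly before birth), on the Affymetrix Mouse Gene 1.0 design. The sources used here do not give the Cre driver, the deleted exons, the strain or the control genotype. No label says whether each array is a separate embryo, so p-values reflect the spread among these 6 arrays, and that spread may be technical.

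Keratins are the intermediate filament proteins of epithelial cells. A type I chain pairs with a type II chain, and the pairs assemble into filaments that are anchored at desmosomes and give the cell its resistance to stress. The lining of the gut is a simple epithelium, and its filaments are built from Krt8 paired with Krt18, Krt19 and, in differentiated cells of the villus, Krt20. The keratins of skin, oral mucosa and hair are normally made in layered epithelia. The proteins GATA4 and GATA6 regulate transcription in gut endoderm by binding DNA at GATA sequences.

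The values are 1 deposited log2 level for each probe set and array, with similar medians on all arrays, and 3 arrays per group limit the precision. Probes differ in brightness, so the difference in level between 2 genes has no meaning by itself, and only its change between the groups is used. Detection calls were not used here, so a low level cannot be told from background. The deletion was not seen as a loss of signal: Gata4 stood at 10.93 to 10.96 on the controls and 11.34 to 11.51 on the arrays labelled cKO, and Gata6 at 12.23 to 12.28 and 12.69 to 12.72. A probe set that covers exons outside the deleted part checks nothing, so every direction below rests on the labels. The epithelial list (Epcam, Cdh1, Vil1, Cdx2 and 6 others) averaged 11.88 to 11.94 and 11.97 to 12.14, so markers of gut epithelium were high on all arrays. The list does not separate parts of the gut, so the small intestine as source was not checked by it. Array cKO 2 had the most hepatocyte signal, with a mean over 11 measured hepatocyte genes of 12.54 against 8.70 and 8.82 on cKO 1 and cKO 3. The means on control 1, control 2 and control 3 were 9.81, 8.35 and 11.04. Alb was high on control 1, control 3 and cKO 2 (12.04, 13.19 and 13.66, against 6.56 to 7.09 on the other arrays). Fits with control 3 and cKO 2 left out therefore still held control 1. The erythroid list, of which 5 of 11 genes were measured, was also highest on cKO 2 (11.36, against 7.13 to 9.14 on the other arrays). Control 3 alone had a male pattern (Xist at 6.18, against 11.74 to 12.42 elsewhere). In such bulk RNA, fewer cells of a type and less RNA per cell cannot be told apart.

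On the arrays labelled cKO, 7 of the 48 keratin genes rose and 2 fell. Those that rose were the simple keratin genes Krt7, Krt8 and Krt19, the stratified keratin genes Krt14 and Krt15, and the hair keratin genes Krt36 and Krt84. Krt23, a simple keratin, and Krt25, a keratin of the inner root sheath, fell. Changes are cKO minus control on the log2 scale, and a gene was called changed at an adjusted p under 0.05 in limma with Benjamini-Hochberg adjustment over all genes tested. The 9 called genes were 18.8% of the family, against 12.9% of all genes. By direction, 14.6% of the family was higher, against 5.52% of all genes, and 4.17% was lower, against 7.42%. The median change was -0.01, as was that of all genes. The groups did not overlap for 17 of 48 genes (35.4%), near the 32.6% of all genes. By class, 4 of 6 simple (66.7%), 2 of 19 stratified (10.5%) and 3 of 21 hair and root sheath keratins (14.3%) were called, against 12.9% of all genes. Their median changes were 0.32, -0.01 and -0.07. The simple class averaged 10.92 to 10.95 on the controls, above the 8.33 to 8.36 of all genes. Bright genes were called more often. With genes below the median mean level left out, 5 of 13 keratins were called (38.5%), against 26.7% of the genes still tested. The 39 genes that were not called had changes between -0.39 and 0.34. Leaving out 1 array at a time left 4 to 9 keratins called (7.43% to 11.4% of all genes), and Krt7, Krt19, Krt36 and Krt84 were called each time. The count was also 4 of 48 (8.33%) with both control 3 and cKO 2 left out, against 7.95% of all genes.

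**Figure D1:**
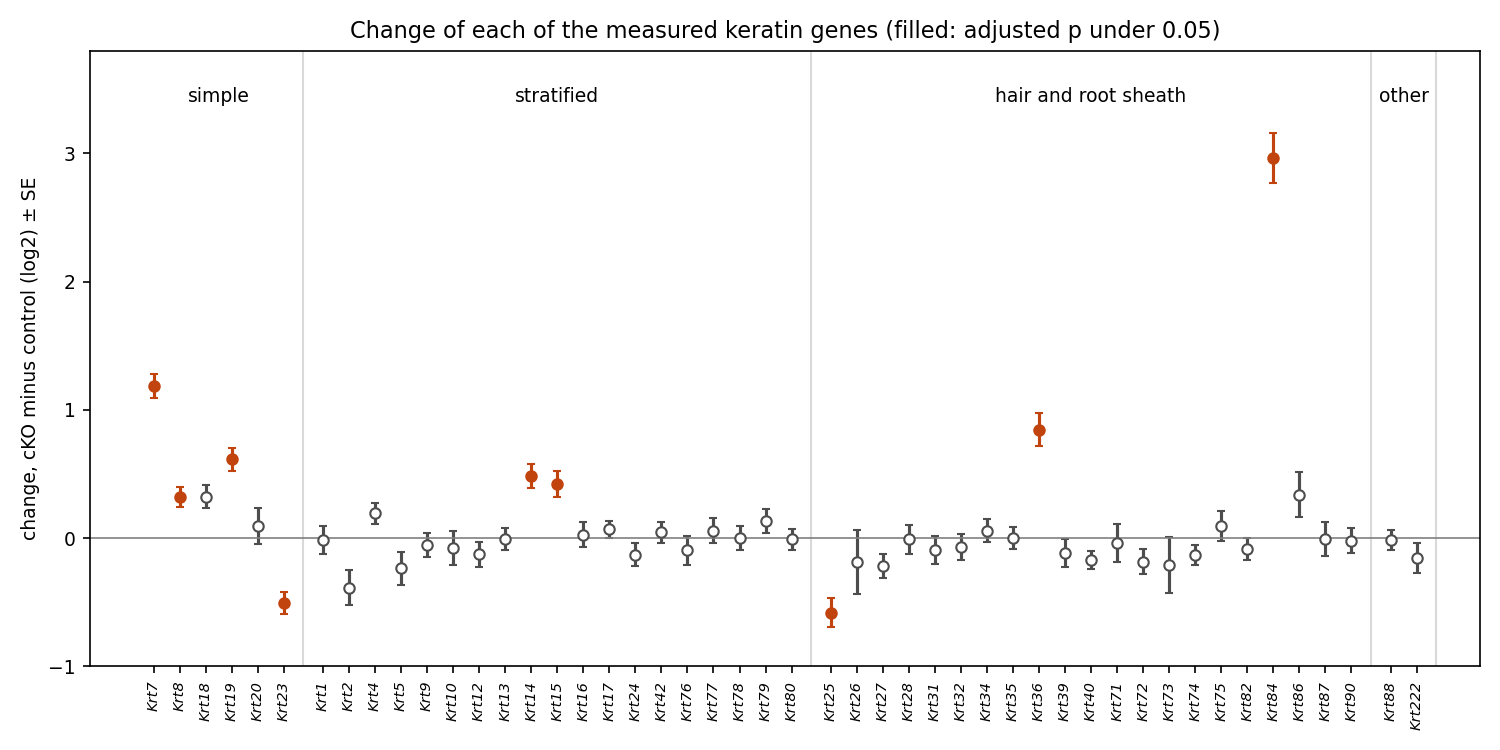
Change of each of the 48 keratin genes, cKO minus control on the log2 scale, with bars of 1 standard error from the limma fit, grouped by class; filled points had an adjusted p under 0.05. Krt84 lies at 2.96 and Krt7 at 1.19, while the 39 open points lie between -0.39 and 0.34.

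Among the simple keratins, Krt7 changed most. Krt7, a type II keratin typical of ducts and glands, stood at 10.14, 10.35 and 10.27 on the controls and at 11.54, 11.31 and 11.47 on the arrays labelled cKO. All 3 levels of the second group lay more than 0.9 above any control, and the change was 1.19 ± 0.096 (SE, n = 3 per group; 2.28-fold, adjusted p = 0.000844). Krt19, a type I keratin that pairs with Krt8, was at 12.25, 12.22 and 12.03 and then at 12.84, 12.68 and 12.82. It rose by 0.61 ± 0.092 (1.53-fold, adjusted p = 0.008), again with no overlap. These 2 calls held with each array left out in turn, with changes of 1.13 to 1.25 for Krt7 and 0.55 to 0.66 for Krt19.

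The pair that forms the core of simple epithelial filaments changed by less. Krt8, the type II chain, stood at 12.99, 12.97 and 12.88 on the controls and 13.31, 13.17 and 13.31 on the arrays labelled cKO. Its change of 0.32 ± 0.078 (1.25-fold) lay just inside the threshold (adjusted p = 0.0454). That call held without cKO 2 (adjusted p = 0.046) but failed without each of the other arrays (0.0906 to 0.144) and under quantile normalization or median centring (0.106 and 0.102). Krt18, its type I partner, was at 11.83, 11.95 and 11.77 and at 12.23, 12.05 and 12.24. Its groups did not overlap either, but the change of 0.32 ± 0.090 (95% confidence interval 0.11 to 0.54) lay just outside the threshold (adjusted p = 0.0671). It passed when the dimmest genes were left out or the variance was modelled with a trend (adjusted p down to 0.0266).

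Krt20, a keratin of differentiated villus cells, did not pass. Its levels of 10.47, 10.26 and 10.73 on the controls overlapped those of 10.74, 10.52 and 10.47 on the arrays labelled cKO. The change was 0.09 ± 0.14, with an interval from -0.25 to 0.43 (adjusted p = 0.742), and its sign turned without control 2 (range -0.02 to 0.21). Krt23, a type I keratin, went down, from 7.94, 7.97 and 7.84 to 7.53, 7.35 and 7.35. The groups did not overlap and the fall was -0.51 ± 0.085 (1.42-fold lower, adjusted p = 0.0118). Its call was lost without control 2 or cKO 3 (adjusted p up to 0.0545) and with both control 3 and cKO 2 left out (0.0577).

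**Figure D2:**
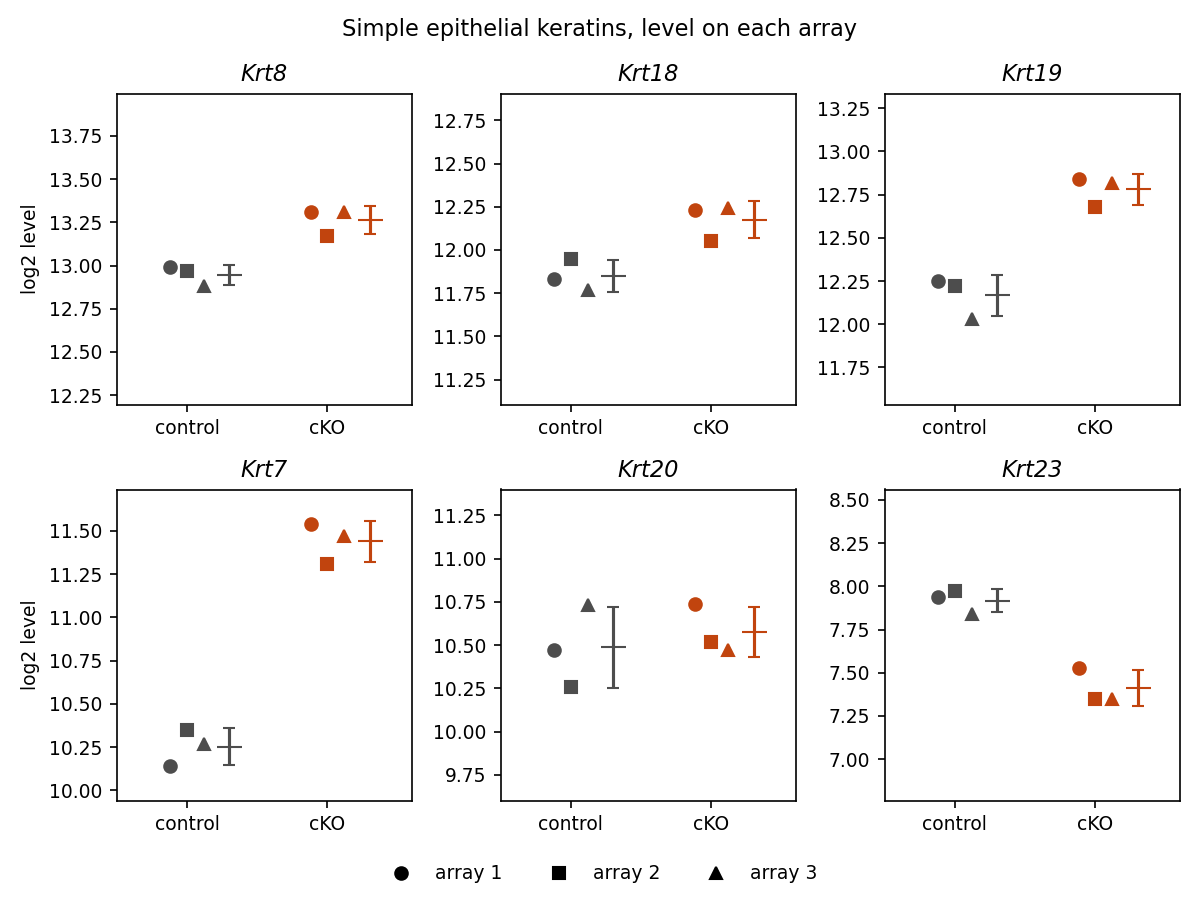
Deposited log2 level of each simple keratin gene on each array, with the mean and SD (n = 3) beside the points; each panel has its own range of the same height. Krt7, Krt8, Krt18 and Krt19 lie higher on all 3 arrays labelled cKO, Krt23 lies lower, and the groups of Krt20 overlap.

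Whether the simple keratins moved by equal amounts was looked at within arrays. The difference between 2 genes was taken within each array, for all 15 pairs, and compared between the groups by a two-sided exact permutation test. With 3 arrays against 3 that exact test cannot go below p = 0.10, or 0.125 after Benjamini-Hochberg adjustment over the 15 pairs, so no pair could pass 0.05. The groups did not overlap for 12 pairs. Krt8 minus Krt18 was one of the 3 that did overlap, at 1.16, 1.02 and 1.11 on the controls and 1.08, 1.12 and 1.07 on the arrays labelled cKO. The 2 partners thus differed in their change by -0.01 (-0.045 to 0.025 with 1 array left out; exact p = 1). The change of Krt7 was 0.87 above that of Krt8 and 0.57 above that of Krt19 (exact p = 0.10 each). That of Krt19 was above that of Krt18 by 0.29 and that of Krt8 by 0.30, at exact p = 0.10 each, so unequal changes were not shown by a test. Krt8 minus Krt20 and Krt18 minus Krt20 were the other two pairs with overlap, with differences of 0.23 each (exact p = 0.4, adjusted 0.429).

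Among markers of cell types that carry simple keratins, those of goblet cells rose most often. The goblet cell list rose in 8 of 9 measured genes (88.9%, against 5.52% of all genes). It averaged 10.63 to 10.89 on the controls and 11.64 to 11.83 on the arrays labelled cKO. It is a bright list, since all genes averaged 8.33 to 8.36 on the controls. Bright genes were called more often, at 26.7% in either direction when genes below the median mean level were left out. Mesothelial genes, from the keratin-bearing cell layer that covers the gut, rose in 4 and fell in 1 of 8 (without Krt5). These shares are 50% and 12.5%, against 5.52% and 7.42% of all genes. That list averaged 7.25 to 7.36 and 7.58 to 7.72, but Upk3b fell by 1.86 while Msln rose by 0.93. In the epithelial list 1 of 10 genes passed (10%, against 12.9% of all genes), with a list median of 0.11. That gene was Epcam, which rose by 0.32 ± 0.075 (adjusted p = 0.0372). Of the duct and pancreas list 1 of 7 genes rose (14.3%), also near the share of all genes. That list averaged 8.14 to 10.28 and 9.59 to 10.25. No marker of any of these lists was at 0 on any array. Their part in the keratin changes was not tested. Array cKO 2, which had the most hepatocyte signal, was the lowest of its group for 6 of the 7 keratins that rose, of all classes (Krt14 was the exception). Array cKO 1 was the highest for all 7, tied with cKO 3 for Krt8. The epithelial and goblet lists also averaged lowest of the group on cKO 2 (11.97 and 11.64), so its low place was not particular to keratins. How often cKO 2 was lowest over all genes is not given. A link with the hepatocyte signal was not tested.

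The largest change of the family was that of Krt84, a type II keratin of hard structures that has been described in the papillae of the tongue. It was at 5.64, 5.74 and 5.87 on the controls and at 8.94, 8.27 and 8.93 on the arrays labelled cKO. Every array labelled cKO was at least 2.4 above every control. The change was 2.96 ± 0.19 (7.80-fold, interval 2.50 to 3.43 on the log2 scale, adjusted p = 0.00042) and stayed between 2.85 and 3.19 as each array was dropped. The control level is low, and a low level can understate a fold change. Krt36, a type I hair keratin also known from the tongue, was at 8.37, 8.54 and 8.11 and rose to 9.31, 9.07 and 9.17. The groups were apart, with a change of 0.84 ± 0.13 (1.79-fold, adjusted p = 0.00858; 0.73 to 0.94 with 1 array left out). Krt25, a type I keratin of the inner root sheath, went the other way, from 7.29, 7.51 and 7.43 to 6.85, 6.64 and 6.99. Its fall was -0.58 ± 0.11 (1.5-fold lower, adjusted p = 0.0207), a call that did not hold when control 2, control 3 or cKO 1 was removed (up to 0.0817). All levels of Krt25 lay below the array medians of 7.73 to 7.84, and a low level cannot be told from background.

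The 18 other hair and root sheath keratins did not pass, with changes from -0.22 to 0.34. The largest positive one was Krt86, a hair cortex keratin, at 7.03 to 7.74 on the controls and 7.67 to 7.76 on the arrays labelled cKO (change 0.34 ± 0.17, adjusted p = 0.286). Krt75, a keratin of the hair follicle's companion layer, differed by 0.09 ± 0.12, and its sign turned without control 1 (range -0.02 to 0.17). The largest negative ones were Krt27, an inner root sheath keratin (-0.22 ± 0.095, adjusted p = 0.209), and Krt73 (-0.21 ± 0.22, adjusted p = 0.605), another of that sheath. Of the 4 keratin genes with a letter in their symbol, which the naming rule leaves out (Krt6a, Krt6b, Krt33a and Krt33b), limma called 0 past the threshold, and 0 had an unadjusted p under 0.05.

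**Figure D3:**
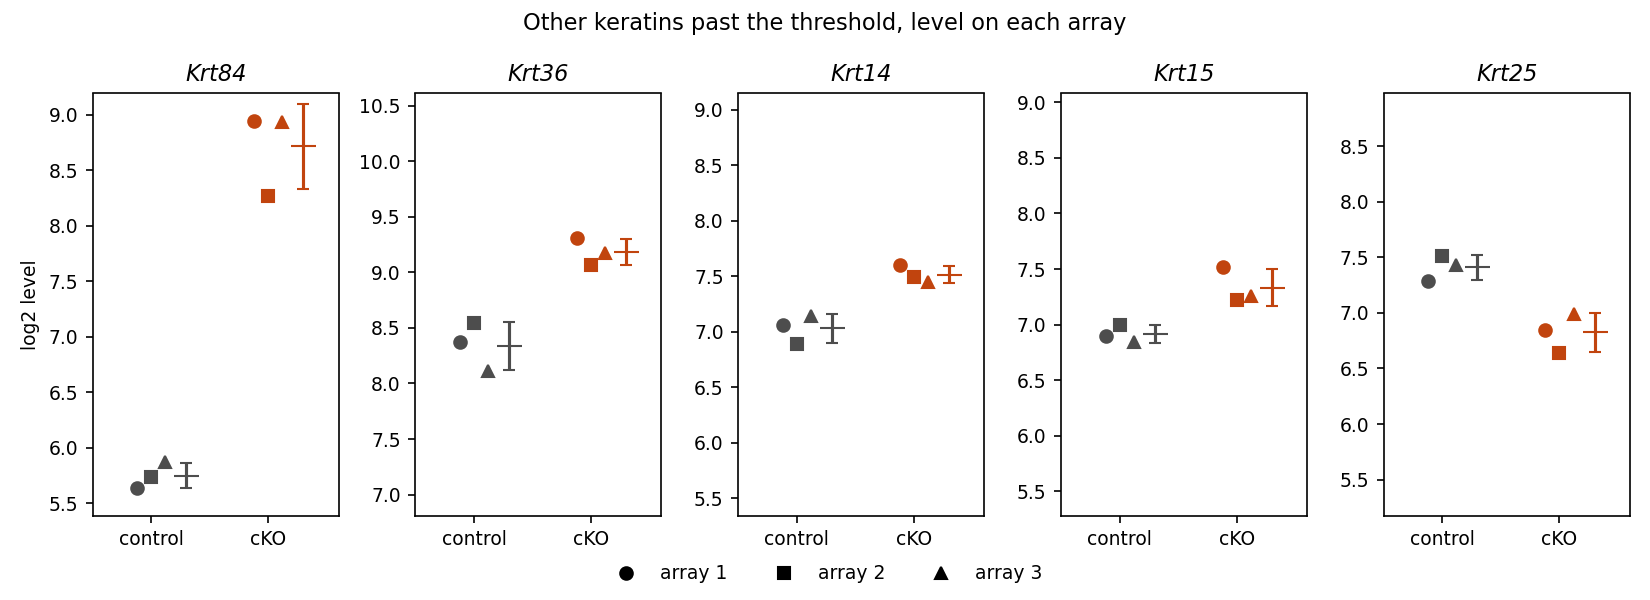
Deposited log2 level on each array of the 5 keratin genes outside the simple class that passed the threshold, with the mean and SD (n = 3) beside the points; all panels span the same height on their own range. Krt84 moves from 5.64 to 5.87 on the controls to between 8.27 and 8.94 on the arrays labelled cKO, and the shifts of Krt14 and Krt15 are under 0.5.

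The stretch of promoter before the start site is shown for some of the called genes, since GATA4 and GATA6, whose genes the labels name, bind DNA. The calls of Krt84, Krt36 and Krt7 held with each array left out. Krt23 was added as a gene that fell, and its call did not hold each time. Krt19, whose call also held, had no promoter window. The genes shown were picked, so they allow no comparison of rising with falling genes. The sequences are 250 bases upstream of the RefSeq start in build GRCm38.p6, written from 5′ to 3′ along the gene's strand. Capitals mark GATA words, which are AGATAA, the variant AGATAG, the variant TGATAA and the variant TGATAG. They also mark the word TTTATG. All were searched on both strands, so a word may appear as its reverse complement.
Krt84, chr15:101532821-101533070, minus strand: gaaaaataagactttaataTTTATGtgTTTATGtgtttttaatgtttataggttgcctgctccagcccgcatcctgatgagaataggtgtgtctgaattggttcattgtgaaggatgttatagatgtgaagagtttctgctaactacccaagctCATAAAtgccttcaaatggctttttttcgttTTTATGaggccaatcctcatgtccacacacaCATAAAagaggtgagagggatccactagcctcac
Krt36, chr11:100105627-100105876, minus strand: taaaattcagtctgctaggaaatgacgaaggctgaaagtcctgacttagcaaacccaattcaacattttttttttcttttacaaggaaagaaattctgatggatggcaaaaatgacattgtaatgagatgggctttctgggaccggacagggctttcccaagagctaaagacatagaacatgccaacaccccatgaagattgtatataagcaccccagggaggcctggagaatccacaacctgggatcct
Krt7, chr15:101412153-101412402, plus strand: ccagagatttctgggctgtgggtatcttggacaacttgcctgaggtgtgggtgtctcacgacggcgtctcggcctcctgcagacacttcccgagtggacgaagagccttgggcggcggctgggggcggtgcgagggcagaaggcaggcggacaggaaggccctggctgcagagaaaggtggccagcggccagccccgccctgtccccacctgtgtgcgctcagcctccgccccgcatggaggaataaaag
Krt23, chr11:99493121-99493370, minus strand: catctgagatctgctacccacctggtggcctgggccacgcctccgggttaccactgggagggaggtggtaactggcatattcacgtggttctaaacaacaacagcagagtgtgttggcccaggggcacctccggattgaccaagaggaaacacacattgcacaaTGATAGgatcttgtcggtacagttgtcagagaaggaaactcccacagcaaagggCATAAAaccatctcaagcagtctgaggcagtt
No GATA word stood in the windows of Krt84, Krt36 and Krt7, and the window of Krt23 held 1. Promoter windows were found for 35 of the 48 genes, and 15 of the 35 (42.9%) held at least 1 GATA word, against 26.5% of all 32851 windows. The first share is counted per gene and the second per window. Words made only of A and T, searched on the gene's strand alone, were also commoner in keratin windows. TATAAA was found for 40.0% of the 35 genes against 7.59% of all windows, and ATAAAA for 45.7% against 10.2%. Among the called keratins with a window, 4 of 7 held a GATA word (Krt8, Krt14, Krt23 and Krt25). The word TTTATG, chosen after the Krt84 sequence had been seen, occurred 5 times there and at least 5 times in 1 of all windows, which is that of Krt84. It was present at least once in 10.8% of all windows and in those of 15 of the 35 keratin genes (42.9%), so its presence is not particular to Krt84. Krt82, whose gene lies next to Krt84, held it 3 times and changed by -0.08 ± 0.085 (adjusted p = 0.599). A match of letters is no evidence of binding, and the absence of one says only that these words are not in this window.

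Of the 19 keratins of stratified epithelia, 2 passed (10.5%, against 12.9% of all genes). Krt14, the type I keratin of the basal layer, stood at 7.06, 6.89 and 7.14 on the controls and at 7.60, 7.49 and 7.45 on the arrays labelled cKO. The groups did not overlap and the change was 0.48 ± 0.093 (1.40-fold, adjusted p = 0.0194). Krt15, another type I keratin of basal cells and of the hair follicle bulge, was at 6.90, 7.0 and 6.84 and at 7.52, 7.22 and 7.26, a change of 0.42 ± 0.10 (1.34-fold, adjusted p = 0.0467). Neither call was firm, and all levels of both genes lay below the array medians of 7.73 to 7.84, where background cannot be told apart. Krt14 missed the threshold when control 1, control 2, cKO 1 or cKO 3 was removed (0.0518 to 0.0631). The Krt15 call survived only the removal of cKO 2 (0.0472; up to 0.147 otherwise), and failed under quantile normalization (0.0509) or median centring (0.0735). Krt5, the type II partner of Krt14, was at 7.09 to 7.39 and 6.81 to 7.16 and differed by -0.24 ± 0.13 (adjusted p = 0.300). The largest fall that did not pass was in Krt2, a keratin of the upper epidermis (-0.39 ± 0.13, adjusted p = 0.122). Krt4, a mucosal keratin, differed by 0.19 ± 0.081 (adjusted p = 0.190) and Krt79, a skin keratin, by 0.13 ± 0.093 (adjusted p = 0.439).

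Of 18 measured genes of squamous differentiation, limma called 0 past the threshold, against 12.9% of all genes. An unadjusted p under 0.05 was found for 4 of the 18, and for 5294 of all 19938 genes. The list averaged 7.38 to 7.44 on the controls and 7.25 to 7.41 on the arrays labelled cKO, with a median change of -0.03. Trp63, the transcription factor that defines basal cells, was at 7.18 to 7.24 and 7.11 to 7.23.

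Keratin genes lie in a type I and a type II cluster. In the order of the RefSeq table, Krt84 lies between Krt83, not analysed here, and Krt82, which did not pass. Krt7 has Krt80 and Krt87 beside it, with changes of -0.01 each. Krt36 lies between Krt35 (0.00 ± 0.085) and Krt13 (-0.01 ± 0.083), neither of which passed. The 2 neighbouring genes Krt15 and Krt19 both rose, but Krt9, between Krt19 and Krt14, differed by only -0.06 ± 0.092. Krt8 and Krt18, of opposite types, lie side by side at the end of the type II cluster. Of the called genes, 6 were among 25 type I (24.0%) and 3 among 21 type II keratins (14.3%), against 12.9% of all genes, and the difference between the types was not tested.

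**Figure D4:**
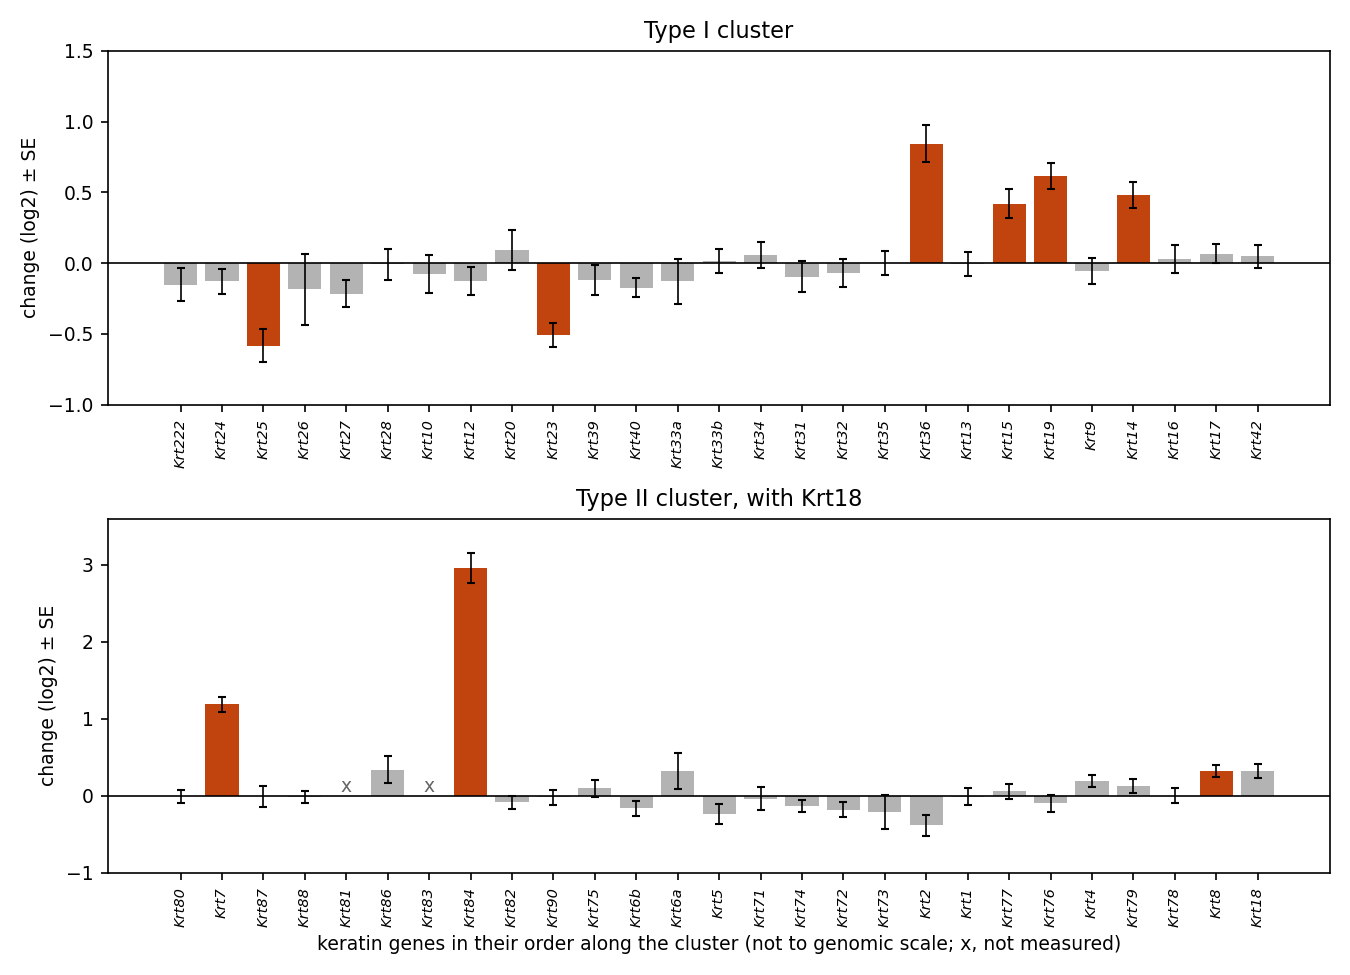
Change of each measured keratin gene, cKO minus control on the log2 scale with 1 standard error, in the order of the genes along the type I (top) and type II (bottom) cluster; coloured bars had an adjusted p under 0.05, and the 2 panels have different ranges. The bar of Krt84 reaches 2.96 while that of its neighbour Krt82 is at -0.08.

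Genes that anchor keratin filaments at junctions were called at a share near the background. Of 19 desmosome and linker genes, 2 rose and 1 fell (15.8%, against 12.9% of all genes), and the median change was -0.08. Pof1b, an actin-binding protein of epithelial junctions, was at 9.66, 9.72 and 9.50 on the controls and 10.49, 10.32 and 10.61 on the arrays labelled cKO. It rose by 0.85 ± 0.11 (adjusted p = 0.00395), with no overlap, and its call held with each array left out. Ppl, the desmosomal linker periplakin, changed by 0.30 ± 0.075 (adjusted p = 0.0480) and Pkp4, plakophilin 4, by -0.34 ± 0.071 (adjusted p = 0.0266). Both calls were lost on leaving out any array (adjusted p up to 0.138 and 0.0915). The count of this list was 1 with both control 3 and cKO 2 left out (against 7.95% of all genes). It was 7 with a trended variance (against 14.8% of all genes). Dsp, desmoplakin, which ties keratins to the desmosome, was at 11.07 to 11.31 and 11.15 to 11.50 and did not pass (0.15 ± 0.12, adjusted p = 0.476).

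Of 14 genes that organise, modify or fold keratin filaments, 3 rose and 1 fell (28.6%, against 12.9% of all genes), with a median change of 0.17. The count ran from 1 to 4 with 1 array left out, against 7.43% to 11.4% of all genes. The list averaged 9.94 to 9.96 on the controls, above the 8.33 to 8.36 of all genes. When genes below the median mean level were left out, 4 of the list passed, and 26.7% of all the genes still tested. How many of the list were kept is not given, so that count cannot be set against that share. Hspb1, a small heat shock protein that binds filaments, was at 7.94, 8.12 and 7.95 and then at 8.93, 9.01 and 8.70, a rise of 0.88 ± 0.11 (adjusted p = 0.0037). Fam83h, which brings casein kinase 1 to keratin filaments, rose by 0.61 ± 0.10 (adjusted p = 0.011), with levels of 9.86 to 10.05 and 10.41 to 10.69. Csnk1a1, that kinase, rose by 0.33 ± 0.074 (adjusted p = 0.0342), and Ezr, the ezrin of the microvillus cortex, fell by 0.48 on the log2 scale (adjusted p = 0.0203). The Hspb1 call held with each array left out, that of Fam83h was lost without control 2 (adjusted p = 0.0504), that of Ezr without control 2, control 3 or cKO 3, and that of Csnk1a1 without any 1 array.

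Of 15 genes for intermediate filaments other than keratins, 1 passed (6.67%, against 12.9% of all genes). The groups did not overlap for 6 of the 15 (40%, against 32.6% of all genes). Nes, nestin, a filament of progenitor and stromal cells, was at 6.85, 6.35 and 6.69 on the controls and at 8.73, 8.81 and 8.85 on the arrays labelled cKO. The rise was 2.17 ± 0.13 (adjusted p = 0.000354; 2.03 to 2.28 with 1 array left out). Vim, vimentin, the filament of mesenchyme, was at 9.21 to 9.79 and 10.16 to 11.54 and did not pass (1.32 ± 0.35, adjusted p = 0.0578). Beside these, 0 of 10 mesenchymal genes passed in limma, with list means of 7.81 to 8.18 and 8.16 to 9.13. An unadjusted p under 0.05 was found for 7 of the 10, and for 5294 of all 19938 genes. Groups without overlap were also found for 7 of the 10 (70%, against 32.6% of all genes). In the endothelial list 0 of 9 passed in limma and 0 had an unadjusted p under 0.05, with means of 7.45 to 8.0 and 7.05 to 8.48. In the immune list 1 of 9 passed (11.1%, against 12.9% of all genes). That gene was Csf1r, which went down, with a change of -2.22 (limma adjusted p = 0.0148). It was the only one of the list to go down. The other 8 genes, none of them called, had changes from 0.38 to 0.75, and the list median was 0.42. The immune list averaged 7.76 to 8.21 on the controls and 7.73, 9.58 and 7.53 on cKO 1, cKO 2 and cKO 3. No marker of these lists was at 0. Their part in the changes of Nes and Vim was not tested.

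**Figure D5:**
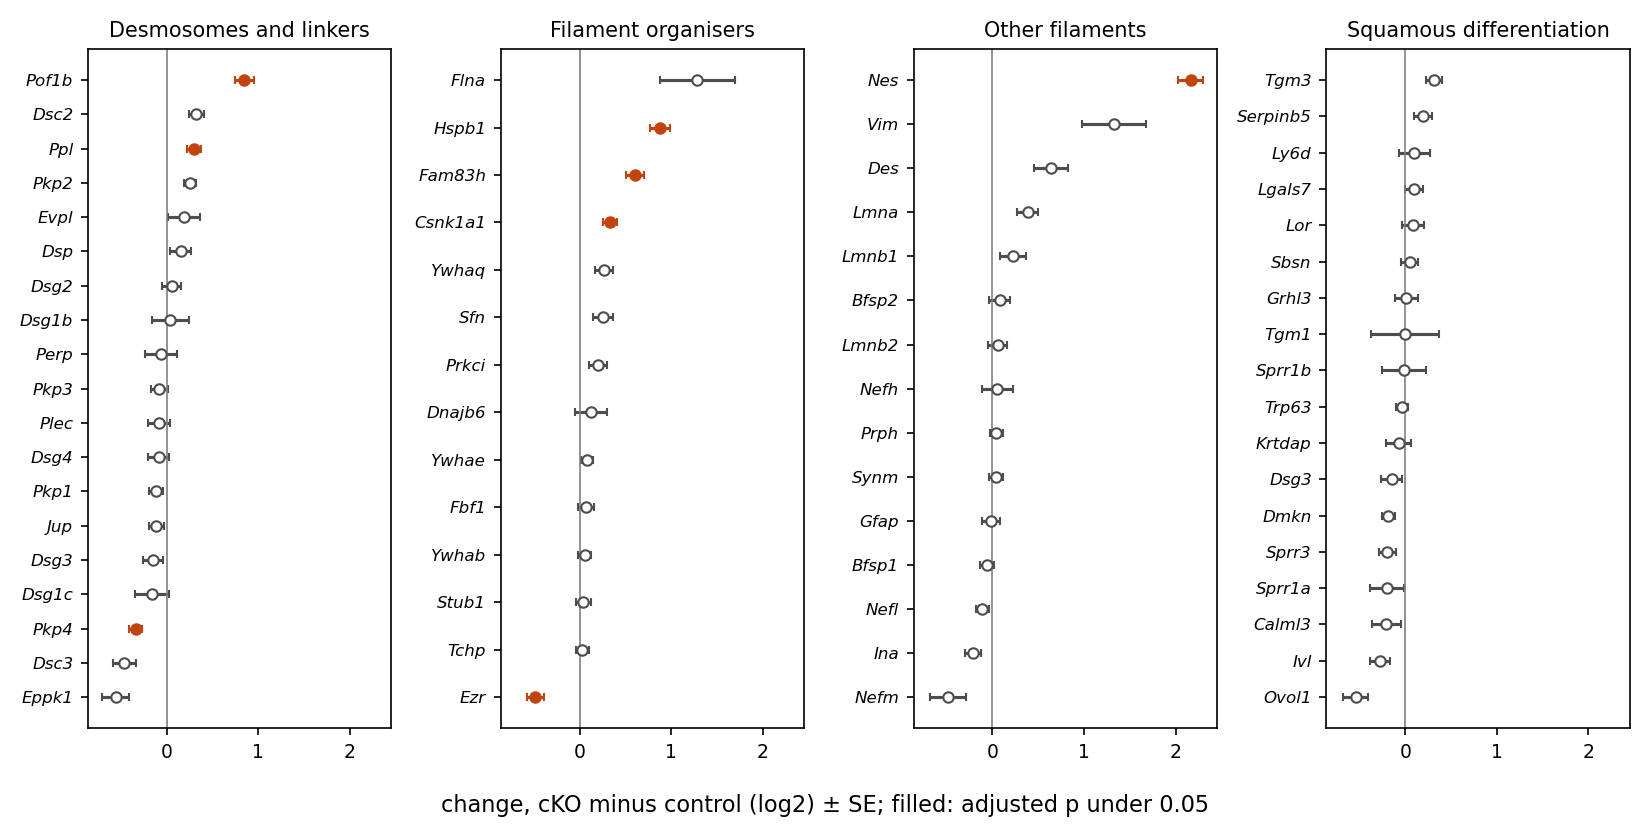
Change of the genes of 4 lists, cKO minus control on the log2 scale with 1 standard error from the limma fit; filled points had an adjusted p under 0.05. Nes lies at 2.17 among the other filaments, Hspb1 at 0.88 among the organisers and Pof1b at 0.85 among the desmosome and linker genes, and no gene of squamous differentiation is filled.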

How the data were processed

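RNA from 6 samples was measured on whole-transcript arrays. The authors deposited 1 log2 value per probe set and array (35512 probe sets), computed in dChip according to the series text. The sources used here give no version, background correction, normalization or expression model. The log base is inferred from the range of 0 to 14.25.

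Of the probe sets, 21789 carry 1 gene, 1621 several and 12102 none in the platform annotation, and 0 of those with several held a keratin. Gene IDs were matched to the RefSeq table of GRCm38.p6 (21698 matched). The probe set with the highest mean was kept for each gene. Groups came from the source names. A two-sided limma fit (version 3.58.1, R 4.3.3, lmFit and eBayes) was run over all 19938 genes without covariates or a filter. The fit was also run on simulated data in which every gene varied independently on every array. Signal shared by many genes of an array, like the hepatocyte signal of control 1, control 3 and cKO 2, was therefore not covered by that simulation. No 2 arrays held the same values. Probes may cross-hybridise between near-identical keratins, which could not be separated.

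Members and lists were chosen with earlier results of these data known. Named are all simple keratins, every other keratin past the threshold, the 4 largest rises and 4 largest falls among the rest, up to 4 changed genes per partner list, and Gata4 and Gata6. Other genes were named after their values were seen. Alternatives were quantile normalization, median centring, log2(2^value + 32), 2 filters on dim genes, a trended robust variance, weights per array, a block for replicate number, means over probe sets, and arrays left out. Deviations of same-numbered arrays from their group means correlated at -0.015, -0.425 and -0.184 across genes, so the numbers were not taken to pair the arrays. No scan date or batch is in the labels.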

Additional observations from a re-analysis of the deposited data

How the results depend on the processing

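Krt7, Krt19 and Krt36 kept their direction and call under every alternative run, as did Krt84 wherever it was tested (it and Krt14, Krt15 and Krt25 were dropped by both filters on dim genes, Krt23 by the stricter one). Krt8 changed by 0.31 under quantile normalization and median centring, 0.32 with the replicate block and 0.33 with control 3 and cKO 2 left out, each time short of the threshold, and by 0.28 to 0.36 with 1 array left out. Krt18 passed at 0.32 under both filters and the trended robust variance. Krt23 stood at -0.515 with control 3 and cKO 2 left out and at -0.57 to -0.48 with 1 array left out. Krt20 ran from -0.023 to 0.21 and Krt75 from -0.018 to 0.17. Keratins higher numbered 4 with the replicate block and with control 3 and cKO 2 left out, and 4 to 7 with 1 array left out. Keratins lower numbered 1 with the block and without the lowest tertile, 0 under the stricter filter and with that pair of arrays left out, and 0 to 2 with 1 array left out. Without the lowest tertile 25 keratins were still tested, and under the stricter filter 13. Over all genes, 622 were higher and 827 lower with the block, 708 and 878 without the pair, and 629 to 959 and 844 to 1322 with 1 array left out. Krt8, Krt14, Krt15 and Krt25 lost their calls in both of those fits.

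Of the desmosome and linker genes 6 passed with log2(2^value + 32), either filter or array weights, 7 with the trended variance, 1 without the pair and 1 to 3 with 1 array left out. Of the other filaments 2 passed under quantile normalization, centring, the pseudocount, the stricter filter, the trended variance or the block, 4 without the lowest tertile and 1 to 3 with 1 array left out. Of the organisers 2 passed with the block or without the pair, and 1 to 4 with 1 array left out. Of the squamous genes 1 passed with the pseudocount, the stricter filter or the trended variance, 2 without the lowest tertile or with array weights, and 0 to 1 with 1 array left out. The share of all genes called moved too. It was 13.9% with the pseudocount, 21.7% without the lowest tertile and 26.7% under the stricter filter. With the trended variance it was 14.8%, and with array weights 15.1%. Quantile normalization gave 11.8%, centring 12%, the block 7.27%, leaving out the pair 7.95%, and leaving out 1 array 7.43% to 11.4%. The number of list genes kept by each filter is not given here. The cause of the shifts in these list counts was not tested beyond the smaller number of genes or arrays. Alternatives for the pairs of simple keratins were chosen after seeing the data, and the Krt8 minus Krt23 difference moved to 0.75 with the pseudocount. The number of arrays and the unknown background limit all of these values.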

Other observations

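The keratin-associated proteins, which fill the space between keratin filaments in hair, were taken by name (Krtap) after the first results had been seen. Of 44 measured genes, cKO-labelled arrays had 1 higher and 2 lower (6.82%, against 12.9% of all genes), and the median change was -0.045. The 3 genes were named after their values were seen. Krtap26-1 was at 6.24, 6.07 and 6.05 on the controls and at 7.45, 9.37 and 8.46 on those labelled cKO, which is a change of 2.31 ± 0.44 (limma adjusted p = 0.0197). Its groups did not overlap, its level on the arrays labelled cKO varied by almost 2 on the log2 scale, and its call was lost without any control or without cKO 3 (adjusted p up to 0.0762). Krtap24-1 was at 7.20, 7.09 and 7.13 and then at 6.38, 6.02 and 5.56, a change of -1.15 ± 0.20 (limma adjusted p = 0.0131), and its call was lost without any 1 control (adjusted p up to 0.0549). Krtap15 changed by -0.46 ± 0.078 (limma adjusted p = 0.0128), a call lost without control 2 or cKO 3 (adjusted p up to 0.0583).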
